A study of Mus musculus with 6 samples.

Results

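The insulin-like growth factor (IGF) axis was followed in mouse hearts through 9 genes chosen by symbol in a deposited table of transcript abundance. They were the ligands Igf1 and Igf2, the receptors Igf1r and Igf2r, and the binding proteins Igfbp3, Igfbp4, Igfbp5, Igfbp6 and Igfbp7. All 9 were among the 24525 gene rows of the table. All 9 were also among the 14541 genes tested, which had 1 TPM or more in 3 or more libraries, and the lowest value of any member in any library was 8.79 TPM, so no member entered the test through 1 group alone. TPM divides each abundance by the length of its transcripts and by the library's total, so levels of different genes can be set side by side.

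The knockout hearts came from double knockout (DKO) mice that the labels give as Mbnl1-/-, Mbnl2cond/cond and Myh6-Cre+/-. They combine a Mbnl1 null background in every cell with a conditional Mbnl2 allele cut by a Cre that the Myh6 promoter drives in cardiomyocytes. MBNL1 and MBNL2 are RNA-binding regulators of alternative splicing that are sequestered by expanded repeats in myotonic dystrophy. The comparison group was labelled WT, with no statement on Cre or conditional alleles. Each group had 3 heart libraries from mice aged 3 to 6 months, DKO replicates 7, 8 and 9 and WT replicates 4, 5 and 6, made from total RNA of heart tissue. DKO 7 is WT in its genotype tag but DKO in its title and source name.

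Mbnl1 had 102 to 108 TPM in the DKO libraries against 145 to 161 TPM in the WT libraries, and Mbnl2 had 227 to 245 TPM in DKO against 149 to 189 TPM in WT. Gene-level TPM includes transcript parts outside a deletion and Mbnl2 from cells without Cre, so neither value checks the deletion. DKO 7 correlated more closely with DKO 8 and DKO 9 (r of log2(TPM + 1) across genes 0.951 and 0.955) than with any WT library (at most 0.939). By the same measure WT 4 was no closer to WT 5 (0.941) than to DKO 9 (0.942). The haemoglobin gene Hbb-bs set DKO 7 apart from its group, at 1690 TPM against 1.15 TPM in DKO 8 and 0.892 TPM in DKO 9. WT 4, 5 and 6 had 1436, 14182.5 and 5293 TPM of it. Xist reached 152 TPM in DKO 7 and 174 TPM in DKO 8, while DKO 9 and the 3 WT libraries had Y-linked transcripts, so sex differs between the groups.

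IGF1 and IGF2 are secreted peptides that bind the receptor tyrosine kinase IGF1R, which signals through IRS docking proteins, PI3-kinase and AKT to growth and survival. IGF2R carries no kinase, removes IGF2 from the cell surface and sorts lysosomal enzymes. IGF-binding proteins hold the ligands in the extracellular space, and proteases release them. In the heart, fibroblasts, macrophages and vessel cells are known local sources of these secreted factors, and IGF1 signalling promotes cardiomyocyte growth.

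In the fit on all 6 libraries, transcripts of Igf1, both receptors and Igfbp7 were higher in DKO and those of Igfbp5 lower. Igf2, Igfbp3, Igfbp4 and Igfbp6 did not pass the test. Of the 9 members, 4 were higher and 1 was lower (limma on log2(TPM + 1), Benjamini-Hochberg adjusted p under 0.05 over all genes tested). Sex differs between the groups. No member was called with DKO 7 counted as WT, or with a term for Xist libraries, which leaves DKO 9 against WT. Over all 14541 genes tested, 6.51% were called higher and 4.22% lower, 10.7% in all. The median log2 difference was 0.37 over the 9 members and 0.03 over all genes tested. The members were chosen with earlier results of these data known. The 3 DKO values lay entirely above the 3 WT values for 5 members and entirely below them for 1, against 19.1% and 13.8% of all genes tested. For each of these 6 members permuting the library labels exactly (two-sided) gave p = 0.1, and 3 libraries a group can give no smaller p.

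**Figure D1:**
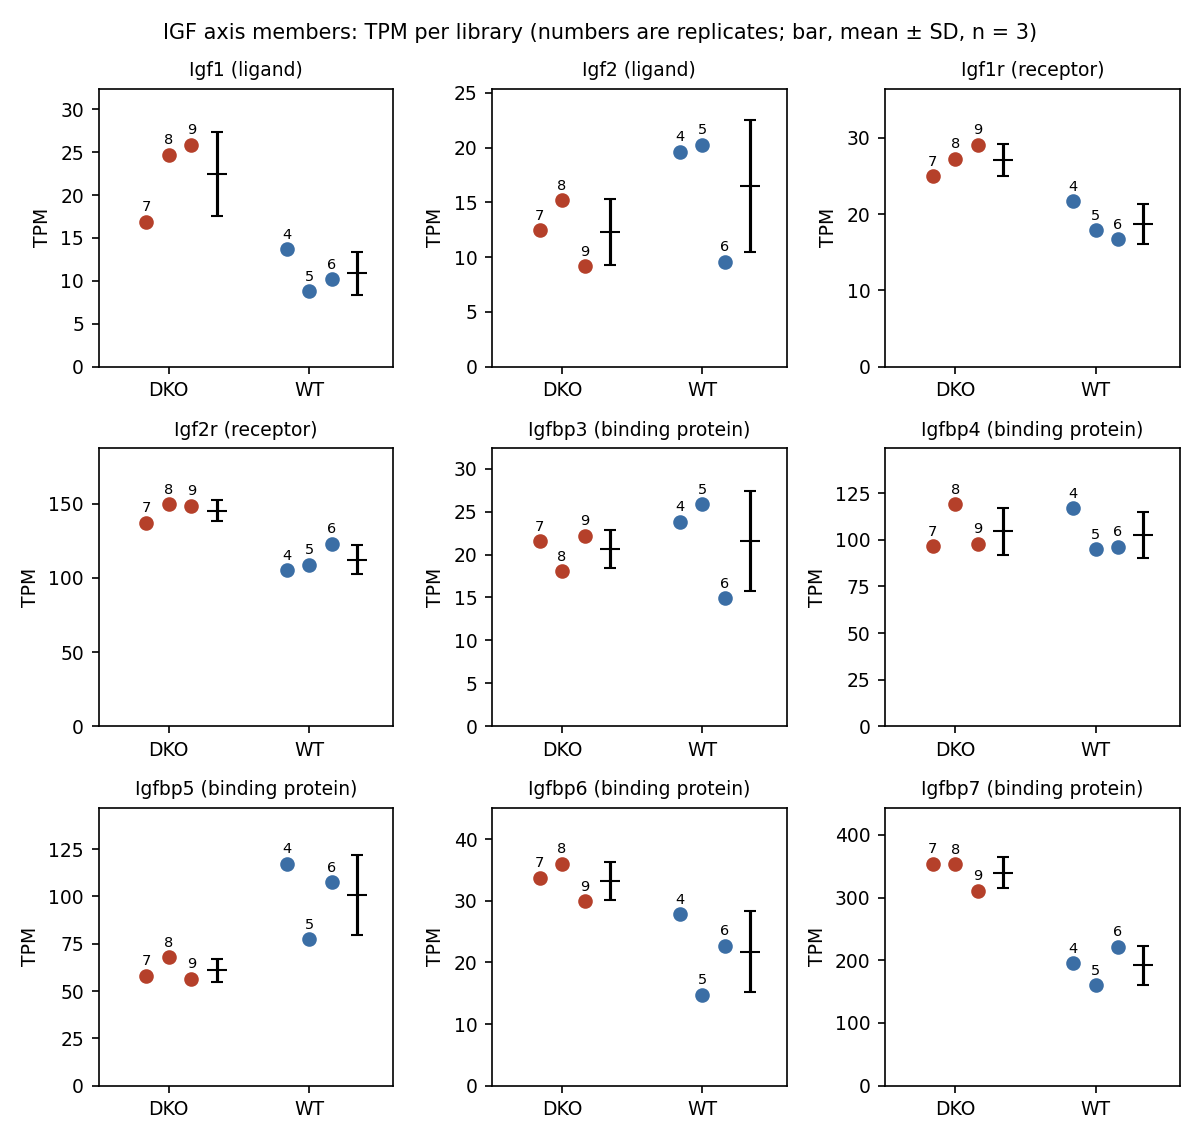
Each panel shows 1 member, with TPM from 0 on the vertical axis and 1 point per library, numbered by replicate, DKO left of WT; the bar gives the mean ± SD of n = 3. Igfbp7 is between 311 and 354 TPM in DKO and between 160 and 221 TPM in WT, whereas the points of Igf2, Igfbp3 and Igfbp4 overlap between the groups.

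Igf1, the growth factor ligand (chromosome 10, 87858265 to 87937042, forward strand, GRCm38), had 16.9, 24.7 and 25.9 TPM in DKO 7, 8 and 9, against 13.7, 8.79 and 10.2 TPM in WT 4, 5 and 6. Every DKO library was above every WT library, with DKO 7 the lowest of its group and WT 4 the highest of its own. The mean was 22.5 ± 4.88 TPM in DKO and 10.9 ± 2.53 TPM in WT (SD, n = 3 each), 2.07-fold higher in DKO. The log2 difference of 0.98 (standard error 0.21; limma, BH adjusted p = 0.0334) was the widest among the members. The call held without DKO 7 (limma, BH adjusted p = 0.0334) or WT 4 (0.0375) and was lost without DKO 8 (0.104), DKO 9 (0.0934), WT 5 (0.0853) or WT 6 (0.0957).

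The bases before a RefSeq start of Igf1 are shown because Igf1 was the ligand that passed the test. That start lies inside the gene span given above, and the bases before the span itself are not shown. This window is chr10:87860861-87861110 on the forward strand of GRCm38.p6, from RefSeq, and capitals mark a CCAAT box, here read on the opposite strand as ATTGG.
Igf1 promoter: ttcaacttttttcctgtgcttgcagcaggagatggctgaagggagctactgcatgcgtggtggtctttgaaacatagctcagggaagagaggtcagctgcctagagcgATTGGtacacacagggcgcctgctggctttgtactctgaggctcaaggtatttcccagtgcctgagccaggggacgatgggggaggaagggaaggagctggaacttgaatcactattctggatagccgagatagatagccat
The letters CCAAT, searched on both strands, were in 33.8% of 32817 promoter windows of 250 bases. TTCNNNGAA, the letters of a STAT5 site, were in 7.01% of all windows and not in this one.

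Markers of macrophages and fibroblasts are given beside Igf1, with 6.51% of all genes tested called higher and 4.22% lower. Of 10 macrophage markers 5 were higher and 2 lower, and their summed level was 425 to 574 TPM in DKO and 215 to 319 TPM in WT. The 5 higher calls became 1 without DKO 7, DKO 8 or WT 4, namely C1qa, and 2 without WT 5, while Cd163 and Lyve1 stayed lower in all 6 such fits. Of 10 fibroblast markers 4 were higher and none lower, with sums of 1917 to 2436 TPM in DKO and 1897 to 1980 TPM in WT. These 4 calls (Col1a1, Col1a2, Col3a1 and Lum) became 1, Col3a1, without DKO 8, WT 4 or WT 5, and 2 without DKO 9 or WT 6. Of 8 markers of activated fibroblasts 6 were higher and none lower, with sums of 511 to 668 TPM in DKO and 116 to 145 TPM in WT, and these 6 held without any 1 library. With the term for Xist libraries, which compares DKO 9 with WT, no macrophage or fibroblast marker passed. Of the activated fibroblast markers 3 did (Comp, Lox and Postn). With DKO 7 counted as WT, no marker of these lists passed. Their part in the Igf1 difference was not tested. In these bulk samples more cells of a type and more RNA per cell cannot be told apart.

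Igf2, the imprinted ligand of fetal growth (chromosome 7, 142650766 to 142666816, reverse strand), had 12.5, 15.2 and 9.14 TPM in DKO 7, 8 and 9, against 19.6, 20.3 and 9.59 TPM in WT 4, 5 and 6. DKO 9 and WT 6 were the low libraries, and the groups overlapped. The mean was 12.3 ± 3.04 TPM in DKO and 16.5 ± 5.99 TPM in WT, a log2 difference of -0.36 with a 95% interval of -1.08 to 0.37 (limma, BH adjusted p = 0.515). That interval spans changes of the size seen for Igf1 in the opposite direction, so these libraries do not exclude a fall of Igf2 of that size. H19, the maternally expressed non-coding RNA beside Igf2, had 13.8 ± 3.77 TPM in DKO and 14.9 ± 10.2 TPM in WT without passing the threshold (limma, BH adjusted p = 0.941).

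Igf1 was the more abundant ligand transcript in all 3 DKO libraries, and Igf2 in 2 of the 3 WT libraries. The ratio of Igf1 to Igf2 TPM was 1.36, 1.62 and 2.83 in DKO 7, 8 and 9, against 0.698, 0.433 and 1.06 in WT 4, 5 and 6. The ratios did not overlap between the groups. The summed TPM of both ligands did, with 29.4 to 39.9 in DKO and 19.7 to 33.3 in WT.

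Igf1r, the signalling receptor (chromosome 7, 67952827 to 68233668, forward strand), had 25, 27.3 and 29.1 TPM in DKO 7, 8 and 9, against 21.7, 17.9 and 16.7 TPM in WT 4, 5 and 6. The groups did not overlap. The mean was 27.1 ± 2.07 TPM in DKO and 18.8 ± 2.64 TPM in WT, 1.45-fold higher in DKO, with a log2 difference of 0.52 (standard error 0.12; limma, BH adjusted p = 0.044). The call held without WT 4 (limma, BH adjusted p = 0.0392) and was lost without DKO 7 (0.0745), DKO 8 (0.117), DKO 9 (0.123), WT 5 (0.110) or WT 6 (0.121).

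Igf2r, the clearance receptor of IGF2 (chromosome 17, 12682406 to 12769664, reverse strand), had 137, 150 and 149 TPM in DKO 7, 8 and 9, against 105, 109 and 123 TPM in WT 4, 5 and 6. It was the more abundant receptor transcript, 5.11 to 5.50 times the TPM of Igf1r in the DKO libraries and 4.83 to 7.38 times in the WT libraries. The mean was 145 ± 7.04 TPM in DKO and 112 ± 9.59 TPM in WT, 1.29-fold higher in DKO, with a log2 difference of 0.37 (standard error 0.08; limma, BH adjusted p = 0.0346). The call held without WT 6 (limma, BH adjusted p = 0.0408) and was lost without DKO 7 (0.0579), DKO 8 (0.106), DKO 9 (0.0963), WT 4 (0.0974) or WT 5 (0.0929).

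Airn, the imprinted antisense RNA that starts within Igf2r and silences its paternal copy in mice, had 94.0 ± 18.6 TPM in DKO and 74.4 ± 10.6 TPM in WT without passing the threshold (limma, BH adjusted p = 0.256). The library kit marks strand, but whether strand was used in quantification is not given in the sources used here. Reads from the stretch that Airn and Igf2r share could therefore have counted toward either row.

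**Figure D2:**
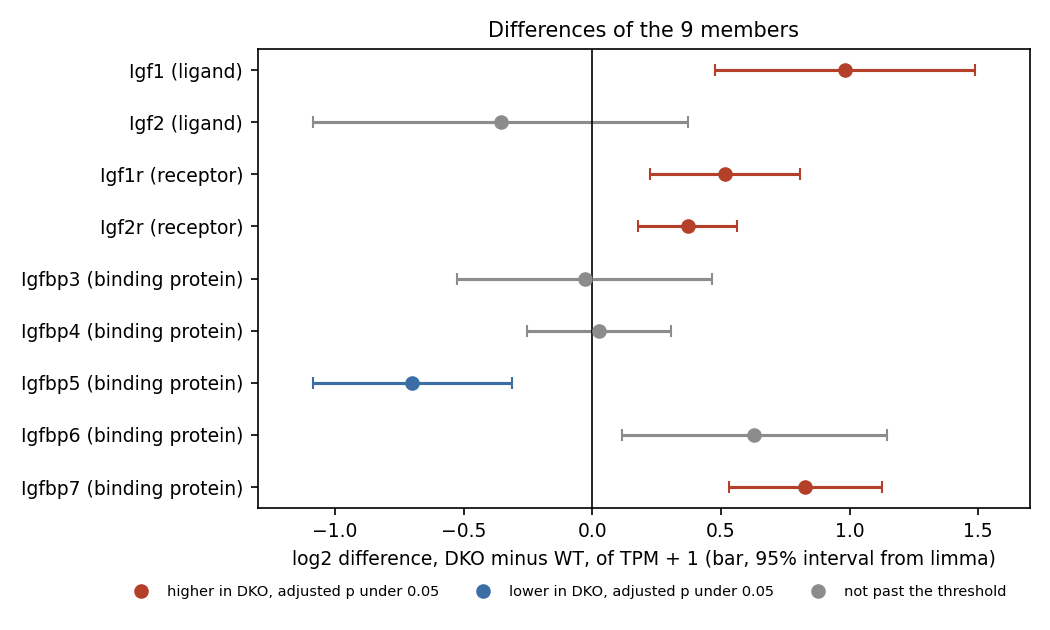
Points give the log2 difference of TPM + 1 between DKO and WT (horizontal axis) for each member (vertical axis), bars the 95% interval from limma, n = 3 libraries per group. The bars of Igf1, Igf1r, Igf2r and Igfbp7 lie above 0 and that of Igfbp5 below it; the bar of Igfbp6 is also above 0, but its adjusted p did not pass.

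Igfbp7, a secreted protein related to the classical binding proteins that binds IGFs weakly and is abundant in vessels (chromosome 5, 77349240 to 77408041, reverse strand), had 354, 353 and 311 TPM in DKO 7, 8 and 9, against 195, 160 and 221 TPM in WT 4, 5 and 6. It was the most abundant member in each of the 6 libraries. The mean was 339 ± 24.8 TPM in DKO and 192 ± 30.9 TPM in WT, 1.77-fold higher in DKO, with a log2 difference of 0.83 (standard error 0.12; limma, BH adjusted p = 0.0113). Igfbp7 was the only member whose call held in all 6 fits that left out 1 library (limma, BH adjusted p from 0.0199 to 0.0472).

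Markers of vessel cells are given beside Igfbp7. Of 10 endothelial markers none was higher and 2 were lower, with a median log2 difference of -0.17 and sums of 835 to 955 TPM in DKO and 900 to 1062 TPM in WT. The lower calls were Cdh5 and Tie1, beside 4.22% of all genes tested, and neither held without any 1 library except Tie1 without WT 5. Of 10 smooth muscle and pericyte markers none was higher and 2 were lower, with sums of 1735 to 1833 TPM in DKO and 1698 to 1877 TPM in WT. The lower calls were Tagln, which held without any 1 library, and Kcnj8, which was lost without DKO 8, DKO 9, WT 5 or WT 6. Acta2, the smooth muscle actin gene that activated fibroblasts also express and that was counted in their list, was higher, at 228 ± 63.3 TPM in DKO and 66.5 ± 11.1 TPM in WT (log2 difference 1.73; limma, BH adjusted p = 0.00726). With the term for Xist libraries or with DKO 7 counted as WT, neither Acta2 nor any marker of these vessel cell lists passed. The part of vessel cells in the Igfbp7 difference was not tested.

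Igfbp5, a binding protein that also attaches to extracellular matrix (chromosome 1, 72857932 to 72874884, reverse strand), had 58.2, 68.0 and 56.5 TPM in DKO 7, 8 and 9, against 117, 77.3 and 108 TPM in WT 4, 5 and 6. The groups did not overlap, and WT 5 was the WT library nearest to DKO. The mean was 60.9 ± 6.23 TPM in DKO and 101 ± 20.9 TPM in WT, 0.604 of the WT mean, with a log2 difference of -0.70 (standard error 0.16; limma, BH adjusted p = 0.0411). The call held without WT 5 (limma, BH adjusted p = 0.0173) and was lost without DKO 7 (0.115), DKO 8 (0.0764), DKO 9 (0.110), WT 4 (0.10) or WT 6 (0.118).

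The promoters of these 2 binding proteins are shown because their transcripts changed in opposite directions. The Igfbp7 window is chr5:77408046-77408295 and the Igfbp5 window chr1:72874866-72875115, both on the reverse strand of GRCm38.p6, from RefSeq, and capitals mark GC boxes. The RefSeq start of Igfbp5 lies inside the gene span given above, so the last bases of its window fall within that span.
Igfbp7 promoter: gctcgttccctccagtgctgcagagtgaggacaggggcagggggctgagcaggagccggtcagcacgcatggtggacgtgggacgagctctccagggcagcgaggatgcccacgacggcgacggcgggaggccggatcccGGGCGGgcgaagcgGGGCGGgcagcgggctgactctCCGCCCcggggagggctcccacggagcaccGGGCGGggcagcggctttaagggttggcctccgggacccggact
Igfbp5 promoter: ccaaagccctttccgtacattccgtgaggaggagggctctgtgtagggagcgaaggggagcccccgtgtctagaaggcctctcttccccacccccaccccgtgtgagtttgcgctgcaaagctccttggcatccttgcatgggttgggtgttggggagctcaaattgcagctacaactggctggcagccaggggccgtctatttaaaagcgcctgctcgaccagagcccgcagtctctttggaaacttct
The letters GGGCGG, searched on both strands, occurred 4 times in the Igfbp7 window and not in the Igfbp5 window, and were in 32.7% of all promoter windows. Their GC content was 74.0% for Igfbp7 and 58.8% for Igfbp5, with a median of 52.4% over all windows. TATAAA, the letters of a TATA box found in 12.4% of windows, was in neither.

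Igfbp6, which prefers IGF2 as its ligand (chromosome 15, 102144362 to 102149511, forward strand), had 33.7, 36.1 and 30.0 TPM in DKO 7, 8 and 9, against 27.8, 14.8 and 22.7 TPM in WT 4, 5 and 6. The groups did not overlap, with means of 33.2 ± 3.06 TPM in DKO and 21.8 ± 6.56 TPM in WT. The log2 difference was 0.63 (SE 0.22) and did not pass over all genes (limma, BH adjusted p = 0.117), nor in any alternative run (0.0678 to 0.598).

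Igfbp3, the main carrier of circulating IGF (chromosome 11, 7206086 to 7213923, reverse strand), had 21.5, 18.1 and 22.2 TPM in DKO 7, 8 and 9, against 23.8, 25.9 and 14.9 TPM in WT 4, 5 and 6. Igfbp4, an inhibitory binding protein that the protease PAPP-A cleaves (chromosome 11, 99041244 to 99054392, forward strand), had 96.5, 119 and 98.1 TPM in DKO 7, 8 and 9, against 117, 94.9 and 96.5 TPM in WT 4, 5 and 6. Both overlapped between the groups. The log2 difference was -0.03 for Igfbp3 with a 95% interval of -0.52 to 0.46, and 0.03 for Igfbp4 with an interval of -0.26 to 0.31 (limma, BH adjusted p = 0.948 and 0.922).

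The make-up of the binding protein transcripts was described by shares, with no test. The summed TPM of the 5 binding proteins was 518 to 594 in DKO and 373 to 481 in WT. Igfbp7 made up 62.8%, 59.4% and 60.1% of that sum in DKO 7, 8 and 9, against 40.5%, 42.9% and 47.8% in WT 4, 5 and 6. Igfbp5 made up 10.3%, 11.4% and 10.9% in DKO 7, 8 and 9, against 24.4%, 20.7% and 23.2% in WT 4, 5 and 6. The ratio of Igfbp7 to Igfbp5 TPM was 5.19 to 6.09 in DKO and 1.66 to 2.07 in WT. The sum of binding proteins over the sum of ligands overlapped between the groups, at 14.8 to 19.2 in DKO and 12.8 to 23.5 in WT.

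**Figure D3:**
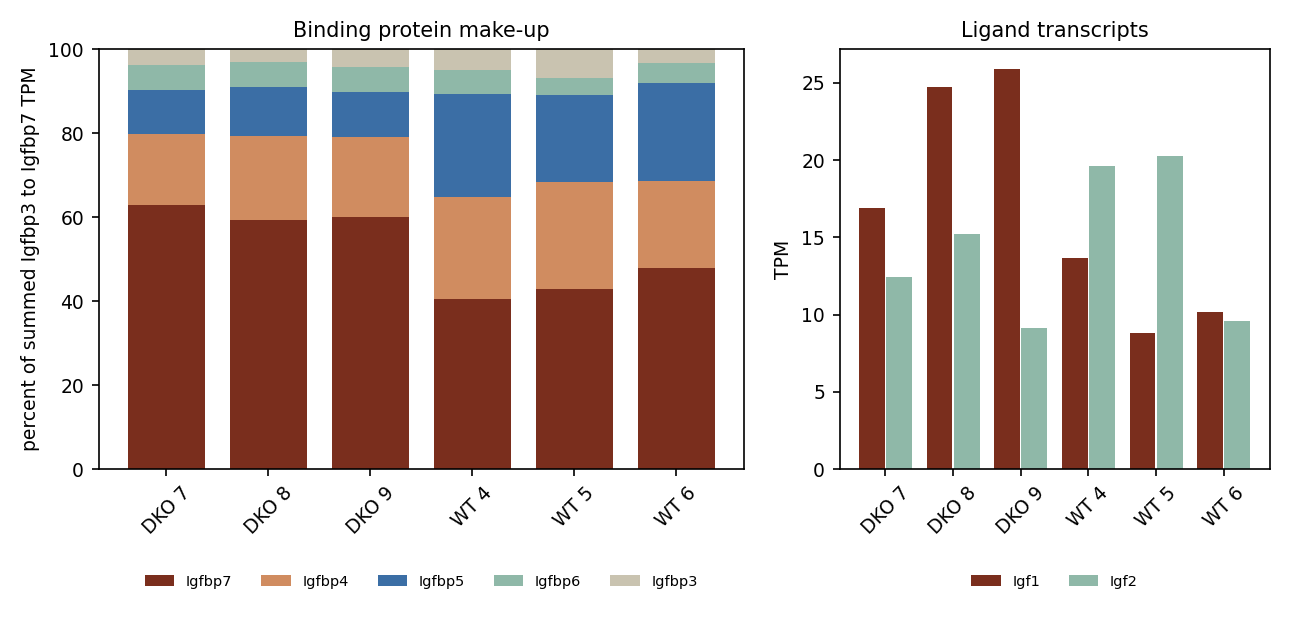
Left, stacked bars give each binding protein's percent of the summed Igfbp3 to Igfbp7 TPM in each library (DKO 7 to 9, then WT 4 to 6); right, bars give the TPM of Igf1 and Igf2 from 0 in the same libraries. Igfbp7 fills 59.4% to 62.8% of the DKO bars and 40.5% to 47.8% of the WT bars, and Igf1 exceeds Igf2 in every DKO library.

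The order of the members by mean TPM was led in DKO by Igfbp7, Igf2r, Igfbp4, Igfbp5 and Igfbp6, and none of these neighbours overlapped in range. Igf1r, Igf1 and Igfbp3 followed, with overlapping ranges between neighbours, and Igf2 was lowest, below the range of Igfbp3. In WT only the steps from Igfbp7 to Igf2r and from Igfbp5 to Igfbp6 were free of overlap, and Igf1 was lowest by mean. Igfbp5 and Igfbp4 could not be ranked in WT, with means of 101 and 103 TPM.

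The groups could be set side by side within libraries that share Y-linked transcripts only through DKO 9. Against the 3 WT libraries it gave log2 differences of 1.20 for Igf1, 0.62 for Igf1r, 0.41 for Igf2r, -0.80 for Igfbp5 and 0.70 for Igfbp7. With a single DKO library, which is assumed to vary like WT, none of these 5 passed (limma, BH adjusted p from 0.188 to 0.284). Both Xist libraries are DKO, so a fit on all 6 libraries with a term for Xist again compared DKO 9 with WT. It gave the same 5 differences and passed none of them (limma, BH adjusted p from 0.153 to 0.216). With DKO 7 counted as WT the same members gave 1.01, 0.47, 0.34, -0.48 and 0.57, and none passed (limma, BH adjusted p from 0.501 to 0.562).

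Other genes of the axis and its signalling were described by 6 lists. Of 65 genes tested in these lists, each counted once, 9 were higher and 4 lower, 13.8% and 6.15%, beside 6.51% and 4.22% of all genes tested. Their median log2 difference was 0.03, the same to 2 decimals as over all genes.

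Of 4 tested genes that bind or carry IGFs, belong to the insulin branch or share the IGFBP domain, 1 was higher and 1, Htra1, lower. Over all genes tested the shares were 6.51% higher and 4.22% lower. Igfals, the acid-labile subunit that joins IGF and Igfbp3 in a ternary complex, had 8.19, 9.14 and 9.52 TPM in DKO 7, 8 and 9, against 5.99, 3.91 and 4.71 TPM in WT 4, 5 and 6, with a log2 difference of 0.77 (standard error 0.17; limma, BH adjusted p = 0.0335). Insr, the insulin receptor, whose alternative exon is a known MBNL target that gene-level TPM cannot show, had 115 ± 13.0 TPM in DKO and 96.2 ± 4.37 TPM in WT without passing the threshold (limma, BH adjusted p = 0.145).

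Among 8 tested IGFBP proteases and their inhibitors 1 was higher and 1 lower, beside 6.51% and 4.22% of all genes tested. The lower one was Htra1 again, since it stands in both lists. Htra1, a secreted serine protease that cleaves IGF-binding proteins, had 39.7, 49.9 and 54.2 TPM in DKO 7, 8 and 9, against 99.0, 71.6 and 94.2 TPM in WT 4, 5 and 6. Its log2 difference was -0.86 (standard error 0.16; limma, BH adjusted p = 0.0214). Stc2, a stanniocalcin that inhibits PAPP-A, had 26.3, 37.8 and 27.7 TPM in DKO 7, 8 and 9, against 14.9, 21.3 and 14.4 TPM in WT 4, 5 and 6, with a log2 difference of 0.83 (standard error 0.19; limma, BH adjusted p = 0.0424). Both genes were separated between the groups. Pappa itself, the PAPP-A gene, was low, at 0.770 to 1.58 TPM in DKO and 0.522 to 1.03 TPM in WT, without passing the threshold (limma, BH adjusted p = 0.465).

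Of 43 tested genes of IGF and insulin signalling 6 were higher and 3 lower, beside 6.51% and 4.22% of all genes tested. Their median log2 difference was -0.01. Irs1, the docking protein next to the receptor, had 45.3, 49.3 and 49.3 TPM in DKO 7, 8 and 9, against 33.0, 27.0 and 23.2 TPM in WT 4, 5 and 6, with a log2 difference of 0.78 (standard error 0.13; limma, BH adjusted p = 0.0163). Eif4ebp1, the translation repressor that mTORC1 inactivates, had 138, 159 and 154 TPM in DKO 7, 8 and 9, against 90.0, 88.1 and 98.3 TPM in WT 4, 5 and 6 (log2 difference 0.70, standard error 0.08; limma, BH adjusted p = 0.00588). Both rose with no overlap between the groups. Akt1, the kinase downstream of PI3-kinase, rose to 190 ± 17.1 TPM in DKO, against 142 ± 12.4 TPM in WT. Ptpn1, a phosphatase that dephosphorylates the insulin receptor, rose to 18.5 ± 1.43 TPM in DKO, against 11.8 ± 0.689 TPM in WT.

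Grb10 and Grb14, related adaptors that inhibit insulin and IGF receptors, changed in opposite directions. Grb14 had 115, 113 and 114 TPM in DKO 7, 8 and 9, against 155, 183 and 166 TPM in WT 4, 5 and 6, a log2 difference of -0.55 (standard error 0.07; limma, BH adjusted p = 0.00791). Grb10, which is imprinted, had 81.8, 81.3 and 81.2 TPM in DKO 7, 8 and 9, against 52.9, 55.7 and 65.1 TPM in WT 4, 5 and 6, a log2 difference of 0.49 (standard error 0.09; limma, BH adjusted p = 0.0208). Pik3r1, a regulatory subunit of PI3-kinase, fell to 62.5 ± 3.91 TPM in DKO, against 81.0 ± 7.38 TPM in WT. Inppl1, a lipid phosphatase of the PI3-kinase product, fell to 84.0 ± 7.00 TPM in DKO, against 115 ± 3.53 TPM in WT.

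Of 5 tested imprinted genes and neighbours of Igf2 and Igf2r 1, Grb10, was higher and none lower. Over all genes tested 6.51% were higher and 4.22% lower. The only tested IGF2 mRNA-binding protein, Igf2bp2, had 6.95 ± 1.96 TPM in DKO and 4.76 ± 1.15 TPM in WT, with a BH adjusted p of 0.264 in limma.

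Growth hormone acts on Igf1 through its receptor, JAK2 and STAT5. Of 7 tested genes of this input 2 were higher and none lower, beside 6.51% and 4.22% of all genes tested. Both were feedback inhibitors of cytokine receptors, and Socs2 also counts among the 43 signalling genes. Cish had 83.4, 81.2 and 55.0 TPM in DKO 7, 8 and 9, against 37.9, 32.6 and 44.2 TPM in WT 4, 5 and 6, a log2 difference of 0.91 (standard error 0.18; limma, BH adjusted p = 0.0277). Socs2 had 74.7, 79.2 and 85.5 TPM in DKO 7, 8 and 9, against 42.8, 38.8 and 60.3 TPM in WT 4, 5 and 6, a log2 difference of 0.77 (standard error 0.16; limma, BH adjusted p = 0.0313). Ghr, the growth hormone receptor, had 130 ± 15.0 TPM in DKO and 159 ± 9.00 TPM in WT, with no overlap, but without passing the threshold (limma, BH adjusted p = 0.102). Of all genes tested, 13.8% were lower in DKO with no overlap.

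Of the 13 calls in these lists, those of Eif4ebp1 and Grb14 held in all 6 fits that left out 1 library. Both were lost with the term for Xist libraries (limma, BH adjusted p = 0.0702 and 0.103), in DKO 9 against WT (0.121 and 0.176) and with DKO 7 as WT (0.501 each), as were the other 11. Irs1 lost its call without DKO 8, DKO 9 or WT 5 (limma, BH adjusted p up to 0.0617), Htra1 without DKO 7, DKO 8, WT 4 or WT 6 (0.0697), and Ptpn1 without DKO 7, DKO 8, WT 4 or WT 6 (0.0677). Inppl1 lost it without DKO 8 or any WT library (limma, BH adjusted p up to 0.0639), and Cish without DKO 7, DKO 8, WT 4 or WT 5 (0.0914). Igfals held only without WT 4, Stc2 only without WT 5, and Grb10 and Socs2 only without WT 6 (limma, BH adjusted p up to 0.1, 0.119, 0.0684 and 0.0917 otherwise). Akt1 and Pik3r1 passed with all 6 libraries alone and in none of these fits (limma, BH adjusted p from 0.0533 to 0.108 and from 0.0705 to 0.119).

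**Figure D4:**
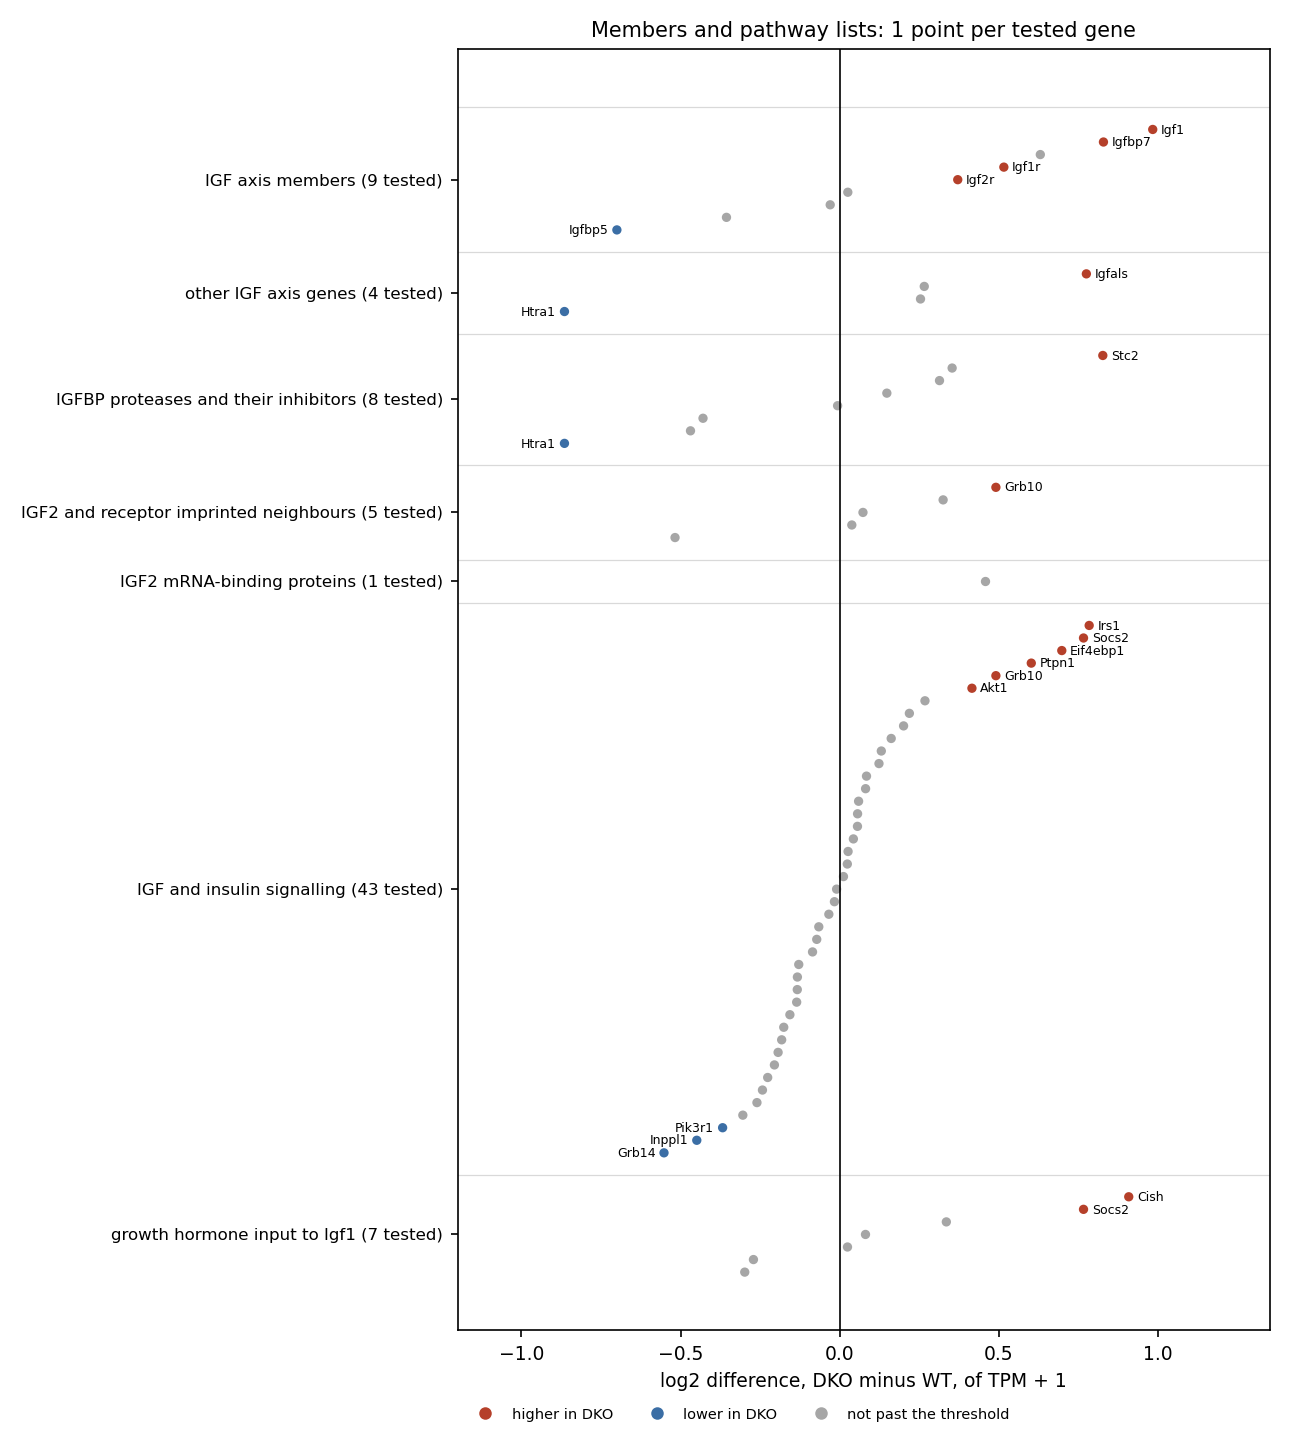
Each point is 1 tested gene, placed by its log2 difference of TPM + 1 between DKO and WT (horizontal axis) within the members or 1 of the 6 lists (vertical axis, genes sorted by value); a gene in 2 lists appears in both. Genes past the threshold are named and coloured, and 34 of the 43 signalling genes lie unnamed around 0.

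The heart identity of the libraries and their other cell types were checked with 9 marker lists, and no marker was at 0 in all 6 libraries. Cardiomyocyte markers summed to 68724 to 70266 TPM in DKO and 72162 to 73219 TPM in WT. Of the 10 markers 1 was higher and 2 lower, beside 6.51% and 4.22% of all genes tested. Among the lower was Tnni3, at 5077 ± 102 TPM in DKO and 7173 ± 254 TPM in WT. Tnni3 stayed lower without any 1 library, Ryr2 was lost without WT 4 or WT 5, and Ttn, the higher one, was lost in all 6 such fits. No cardiomyocyte marker passed with the term for Xist libraries or with DKO 7 counted as WT. The smallest p within a list belonged to Comp among activated fibroblast markers (log2 difference 2.93), Col3a1 among fibroblast markers (1.28), Cd163 among macrophage markers (-1.18), Tie1 among endothelial markers (-0.39) and Tagln among smooth muscle markers (-0.83), all called. Epicardial and mesothelial markers summed to 17.8 to 23.8 TPM in DKO and 18.0 to 53.3 TPM in WT, and Schwann cell markers to 12.2 to 20.1 TPM in DKO and 18.9 to 27.6 TPM in WT, with no gene called in either list. Wt1 had the smallest p of the epicardial list and Kcna1 of the Schwann cell list (limma, BH adjusted p = 0.0964 and 0.107). Erythroid transcripts summed to 1781 to 6764 TPM in DKO and 6045 to 38462 TPM in WT, with Slc4a1 called lower. Among the fits that left out 1 library, that call held only without WT 6. It was lost with the term for Xist libraries and with DKO 7 counted as WT. In the fit without DKO 7, Hbb-bs and Hbb-bt were called lower. Hbb-bt had 216, 0 and 2.52 TPM in DKO 7, 8 and 9, against 307, 2245 and 896 TPM in WT 4, 5 and 6. Hba-a1 was still at 1115 TPM in DKO 8 and 1407 TPM in DKO 9. The cause of this split within DKO was not tested. The part of these cell types in the members' differences was not tested.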

How the data were processed

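RNA of 6 heart libraries was compared, 3 DKO and 3 WT, grouped by title. The authors deposited 1 table of TPM values per gene and library. Per the submitters' processing notes the tools were bcl2fastq and kallisto 0.44.0 and the build was mm10; the sources used here do not give the annotation or how transcripts were summed to genes. Each TPM is relative to its library's total, so abundant RNAs can move the others. It keeps no counts: depth is unknown and no counting interval is given. No label says that each library is a separate animal, so a p-value reflects the spread among these libraries, which may be technical.

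The fit was limma 3.58.1 (R 4.3.3; lmFit, then eBayes with a trend) on log2(TPM + 1), which understates the change of low genes, over genes reaching 1 TPM in 3 libraries. P-values were Benjamini-Hochberg (BH) adjusted over these genes, with a threshold of 0.05. It was tested on simulated data. Permutation tests used scipy 1.17.1 and figures matplotlib 3.10.9. Positions are from GENCODE M21 (GRCm38, the mm10 build); promoters are the 250 bases before a RefSeq start, and all 9 members matched. The members and lists were chosen with earlier results of these data known. By rule the text names all members, Mbnl1 and Mbnl2, the called genes of the 6 lists, 1 gene per marker list and the gene most like each of 3 members. Acta2 and the other called markers, Ghr, Insr, Pappa, H19, Airn, Igf2bp2, Igfbp1, Igfbp2, Hba-a1, Hbb-bs and Hbb-bt were named after their values were seen. The alternatives changed the pseudocount (0.1), the filter (none, or 5 TPM), the scaling (median-ratio, quantile, or without haemoglobin, structural and short RNA), the trend or the weights, counted DKO 7 as WT, added a term for Xist libraries, kept the libraries with Y-linked transcripts alone, or left out 1 library.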

Additional observations from a re-analysis of the deposited data

How the results depend on the processing

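The number of the 9 members called was 5 with all 6 libraries, 2 without a filter, 1 without trend and 1 to 3 without any 1 library (limma, BH). None of the 9 was called with DKO 7 counted as WT, with a term for Xist libraries or in the libraries with Y-linked transcripts alone, where 3, 5 and 5 members had an unadjusted p under 0.05. Of the 65 list genes 13 were called with all 6 libraries, 8 without trend and 2 to 6 without any 1 library; 0, 0 and 0 were called in the last 3 settings, with 8, 15 and 16 at an unadjusted p under 0.05. Over all genes the count of 1560 became 1, 92 and 12 in those settings and 622 to 877 without any 1 library. The cause of the lost calls was not tested, except that the last setting has fewer libraries. The term for Xist libraries gave the same differences as the last setting, DKO 9 against WT. Of 2547 values of 151 named or listed genes under the alternatives, 299 were no longer past the threshold, 26 newly passed it and 0 changed direction while called. Only genes called with all 6 libraries could lose a call, so the 299 are not to be read as a share of 2547. The group difference of the summed binding proteins (120 TPM, DKO minus WT) was 85.7 to 141 TPM in the alternatives run for it. That of the summed ligands (7.41 TPM) ranged from 3.60 TPM without WT 6 to 10.4 TPM without WT 4. No paired analysis was possible because the groups share no replicate numbers. TPM keeps no counts, so the depth behind the low values of Igf1 and Igf2 is unknown.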

Other observations

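Transcripts that followed the called members over the 6 libraries were looked up among 13061 other tested genes by Pearson correlation of log2(TPM + 1), as a description in libraries that share their grouping. The gene most like Igfbp7 was Hacd1, a muscle enzyme of very long chain fatty acid synthesis (r = 0.998), with 115, 114 and 101 TPM in DKO 7, 8 and 9 and 70.4, 56.7 and 78.9 TPM in WT 4, 5 and 6. The gene most like Igf1 was Ifit1bl2, of an interferon-induced family (r = 0.999), with 6.42, 9.73 and 9.66 TPM in DKO 7, 8 and 9 and 5.18, 3.22 and 3.83 TPM in WT 4, 5 and 6. The gene most like Igf2r was Pak6, a p21-activated kinase (r = 0.996), with 13.2, 15.3 and 14.9 TPM in DKO 7, 8 and 9 and 9.35, 9.47 and 11.1 TPM in WT 4, 5 and 6. Such values were common, since 383 genes reached r of 0.95 with Igfbp7, 244 with Igf1 and 205 with Igf2r.

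Igfbp1 was listed at 0 in all 6 libraries. Igfbp2 had 0.454, 0.565 and 0.885 TPM in DKO 7, 8 and 9 and was listed at 0 in the 3 WT libraries. Both stayed under the expression filter and were not tested.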
